A study of Mus musculus with 9 samples.

Results

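Primitive endoderm is the early layer from which extra-embryonic endoderm stem (XEN) cells derive, and 8 genes for transcription factors of that layer were followed here: Gata4, Gata6, Sox17, Sox7, Foxa2, Hnf4a, Foxq1 and Sall4. They were chosen by name, from their known roles, with earlier results of these data known. All 8 were among the 55401 genes of the count table that holds 7 libraries, and all 8 passed the filter on low counts that left 15331 genes to test. Of the 11512 genes held in the table of the 2 WT_clone libraries, 4 were Sox17, Foxa2, Hnf4a and Sall4. In GRCm38 coordinates (GENCODE M21), Gata4 lies on chromosome 14 from 63198922 to 63271692 and Sox7 on the same chromosome from 63943673 to 63950732. Sox17 lies on chromosome 1 from 4490931 to 4497354, Foxq1 on chromosome 13 from 31556134 to 31560976, and Gata6 on chromosome 18. Foxa2 (148042877 to 148046969), Hnf4a (163506808 to 163572910) and Sall4 (168748332 to 168767943) lie on chromosome 2. All counts are reads summed over a gene's exons.

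In the embryo, GATA6 acts early in the choice between epiblast and primitive endoderm, and SOX17, GATA4 and SOX7 come on as the endoderm programme proceeds. FOXA2 and HNF4A are used by the visceral endoderm that surrounds the embryo, where HNF4A drives genes for secreted transport proteins, while SOX7 is a marker of parietal endoderm. XEN cells keep this programme in culture, and forced GATA4 or GATA6 can turn embryonic stem cells into XEN-like cells.

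All libraries were RNA-seq libraries of XEN cells from a Mus musculus molossinus by Mus musculus cross. The groups were WT_EV (wild type, n = 3), DXp (genotype label: paternal Xist deletion, n = 2), DXp_DXm (homozygous Xist deletion, n = 2) and WT_clone (wild type, clones 1 and 2, n = 2). The study asked what a deletion upstream of Xist does in XEN cells, and no source used here gives the coordinates of that deletion. The DXp titles carry 2 numbers that conflict (the library named 1 is rep2, that named 2 is rep1), and the rep number is used. Both DXp libraries carry the name D1 and both DXp_DXm libraries the name D3, so genotype and line cannot be told apart. Per the design text each deletion had 2 biological replicates. Whether the 3 WT_EV libraries were grown apart is not stated, so p-values speak of the spread among these libraries, which may be technical.

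Total counts were 14352719 to 19833044 in WT_EV, 24586135 to 29335803 in DXp and 25589912 to 27334893 in DXp_DXm. Xist took 0.492 to 1.13% of the counts of the shared genes in WT_EV, 1.34 to 2.10% in WT_clone, 5.83 to 5.98% in DXp and 2.12 to 3.49% in DXp_DXm. These counts over Xist do not check a deletion upstream of it. The WT_EV libraries stood apart in their RNA makeup. Rn7sk, a small RNA without a poly(A) tail, had 157188 to 255029 counts per WT_EV library and 2 to 7 per library of either deletion. The mean GC content of the counted transcripts was 48.3 to 49.2% in WT_EV and 43.7 to 44.8% in the deletions. Over the shared genes it was 47.5 to 47.8% in WT_EV, 45.9 to 46.1% in WT_clone, 43.0 to 43.8% in DXp and 43.9 to 44.1% in DXp_DXm. GC content and length together accounted for 46.2% of the variance in log2 change over all genes between DXp and WT_EV, and for 44.9% between DXp_DXm and WT_EV. Between DXp_DXm and DXp they accounted for 7.89%. Over the shared genes tested, they accounted for 43.71% between DXp and WT_clone and 44.04% between DXp_DXm and WT_clone. Between WT_clone and WT_EV the share was 29.03%. Among the 7 libraries of WT_EV and the deletions the makeup and the genotype change together and cannot be told apart. WT_clone is wild type with a low share of small RNA, but its GC content did not match that of the deletions. It is compared further on for the 4 factors its table holds. Each change is therefore given 2 ways, from the counts as deposited and with per-library offsets that remove the trend with GC content and length.

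The cells carried the markers of their label. All 11 extra-embryonic endoderm markers averaged over 1 CPM (TMM-scaled counts relative to the library's total) in each of the 3 groups, and their sum ran from 11705 to 39730 CPM over the libraries. Of these 11 markers 4 are factors of the present set. In DXp replicate 1 the collagen gene Col4a1 had 0 CPM and its neighbour Col4a2 had 0.204 CPM, while in DXp replicate 2 they had 1981 and 318 CPM. Markers of pluripotent cells, trophoblast and fibroblasts summed to at most 5.45 CPM per list in any library. Sox2, Hand1 and Col1a2, which come from those 3 lists, were at 0 in all 7 libraries. Other genes of the lists were above 0. Among trophoblast genes, Esx1 ranged from 0.36 to 4.78 CPM, highest in WT_EV replicate 1. Gata3 ranged from 0 to 3.01 CPM, highest in DXp replicate 2.

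Sox7 was higher in both deletion groups than in WT_EV, with and without the offsets. Hnf4a was lower in both, but with the offsets its change in DXp_DXm missed the threshold. The other 6 factors did not hold a call in the same direction in both versions of the analysis against WT_EV. Without offsets, DXp against WT_EV had 1 factor higher, 5 lower and 2 not called, where 72.3% of all genes tested were called, 32.2% higher and 40.1% lower. In DXp_DXm against WT_EV 1 was higher, 6 were lower and 1 was not called, where 66.8% of all genes were called, 30.8% higher and 36% lower. With 8 factors these shares are coarse, and no test of the factors as a set was made. With offsets the counts became 4 higher, 1 lower and 3 not called in DXp, where 50.1% of all genes were called, 24.2% higher and 26% lower. In DXp_DXm they became 3 higher, 0 lower and 5 not called, where 42.7% were called, 21% higher and 21.8% lower. The split of all genes moved too, from 4930 higher and 6149 lower to 3703 and 3981 in DXp, and from 4729 and 5513 to 3216 and 3338 in DXp_DXm. The median log2 change of the 8 factors was -1.24 in DXp beside -0.35 for all genes, and 0.82 beside -0.08 with offsets. In DXp_DXm it was -1.39 beside -0.15, and 0.71 beside -0.01 with offsets. Both comparisons use the same 3 WT_EV libraries. In bulk RNA, fewer cells with a factor and less RNA per cell cannot be told apart.

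**Figure D1:**
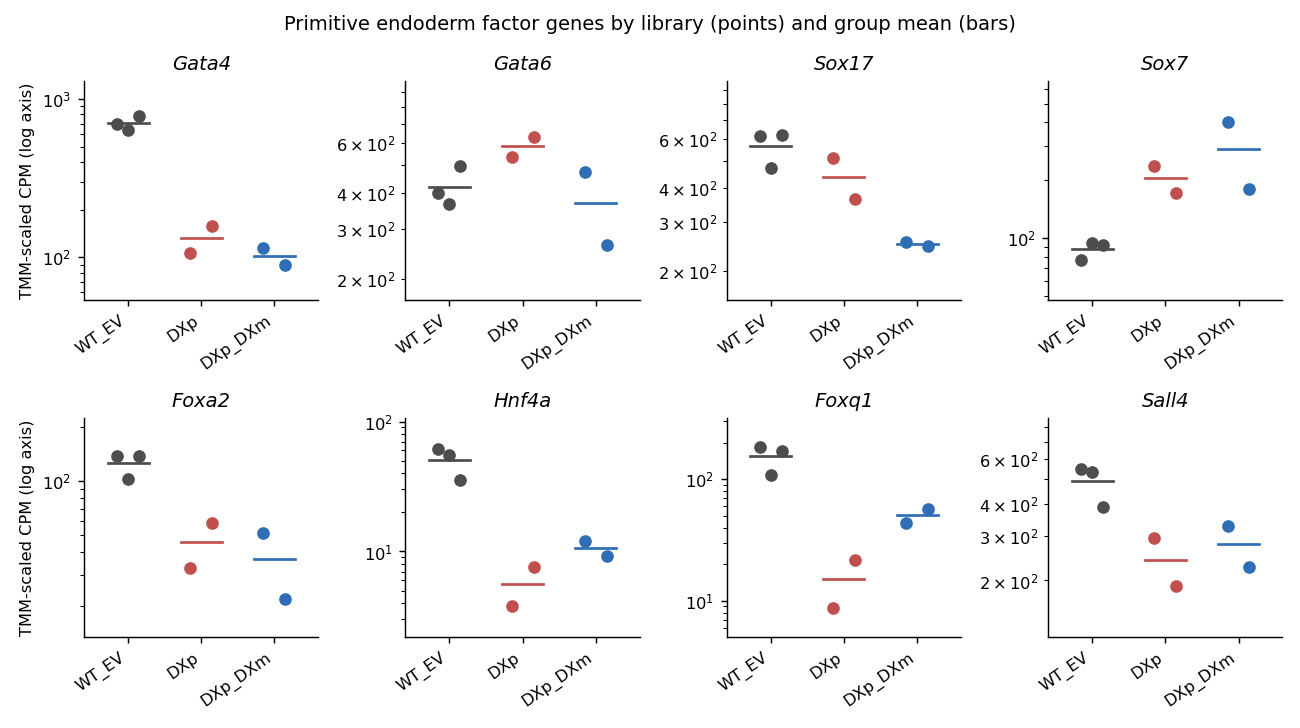
TMM-scaled CPM (log axis) of the 8 factors in each library of WT_EV (n = 3), DXp (n = 2) and DXp_DXm (n = 2), with points for libraries and bars for group means. The deletion libraries of Gata4 (89.1 to 158 CPM) and Hnf4a (3.78 to 12.0 CPM) lie below every WT_EV library, and those of Sox7 (171 to 404 CPM) lie above.

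Sox7 encodes a SOX factor of the same subgroup as SOX17. It was at 77.0, 94.6 and 91.6 CPM in WT_EV, 239 and 171 CPM in DXp, and 404 and 180.0 CPM in DXp_DXm. Every deletion library was above every WT_EV library, and the DXp_DXm libraries differed from each other by more than those of any other group. The log2 change was 1.22 ± 0.33 (SE) in DXp and 1.73 ± 0.33 in DXp_DXm (edgeR quasi-likelihood test, adjusted p = 0.00663 and 0.00104). On the log2 CPM scale after offsets the libraries read 5.91, 6.25 and 6.26 in WT_EV, 8.72 and 8.04 in DXp, and 8.88 and 7.90 in DXp_DXm. The change with offsets was 2.27 ± 0.32 in DXp and 2.33 ± 0.32 in DXp_DXm (edgeR, adjusted p = 5.13e-04 and 7.06e-04). Leaving out each library in turn kept Sox7 called in both comparisons, at 1.08 to 1.45 in DXp and 1.12 to 2.21 in DXp_DXm without offsets. Its transcript, at 51.0% GC, was the least GC-rich of the 8, and genes of 50 to 52% GC had a median change of -1.01 in DXp and -0.61 in DXp_DXm.

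Sox17 is the SOX factor most used as a mark of primitive endoderm. It was at 616, 470.5 and 619 CPM in WT_EV, 512 and 364 CPM in DXp, and 256 and 246 CPM in DXp_DXm. DXp overlapped WT_EV, and DXp_DXm lay below both. Without offsets the change was -0.38 ± 0.24 in DXp, not called, and -1.18 ± 0.24 in DXp_DXm (edgeR, adjusted p = 0.188 and 0.00215). With offsets the signs differed, at 0.94 ± 0.26 in DXp and -0.21 ± 0.26 in DXp_DXm (edgeR, adjusted p = 0.0133 and 0.538). That DXp call was lost without DXp replicate 1 (0.47, adjusted p = 0.213). The exons of a processed transcript on the other strand, Gm37587, cover 16.8% of those of Sox17, and it held 35 to 182 counts per library against 6174 to 11160 for Sox17.

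Gata4, a GATA factor that binds endoderm enhancers, was the factor with the highest level per length in WT_EV. It was at 699, 639 and 778 CPM in WT_EV, 106 and 158 CPM in DXp, and 115 and 89.1 CPM in DXp_DXm. Without offsets it was 5.35-fold lower in DXp and 6.93-fold lower in DXp_DXm, a log2 change of -2.42 ± 0.25 and -2.79 ± 0.25 (edgeR, adjusted p = 3.16e-05 and 2.45e-05). Gata4 had the most GC-rich transcript of the 8 (57.4% GC, above 90.1% of tested genes), and the GC and length trend there was -3.06 in DXp and -2.83 in DXp_DXm. Trend values here and below include the rescaling of the libraries that comes with the offsets. With offsets the Gata4 change was 0.60 ± 0.26 in DXp and 0.02 ± 0.26 in DXp_DXm, neither called (edgeR, adjusted p = 0.0754 and 0.970). Without WT_EV replicate 3 Gata4 was called higher in DXp with offsets (0.87, adjusted p = 0.0120).

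Gata6, the GATA factor that acts first in the lineage, moved otherwise. It was at 401, 366 and 497 CPM in WT_EV, 535 and 629 CPM in DXp, and 473 and 264 CPM in DXp_DXm. Both DXp libraries lay above WT_EV, while DXp_DXm replicate 1 lay within the WT_EV range and replicate 2 below it. Without offsets neither change was called, at 0.47 ± 0.28 in DXp and -0.19 ± 0.28 in DXp_DXm (edgeR, adjusted p = 0.157 and 0.565). With offsets Gata6 was higher in both, by 2.53 ± 0.30 in DXp and 1.67 ± 0.30 in DXp_DXm (edgeR, adjusted p = 2.49e-04 and 0.00238). Those calls held when each library was left out, at 2.44 to 2.85 in DXp and 1.15 to 1.99 in DXp_DXm. The GC and length trend at Gata6 was -2.10 and -1.90, so a level near that of WT_EV became a higher one once the trend was taken off.

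Hnf4a encodes a nuclear receptor of the visceral endoderm and had the lowest level per length of the 8 in all 3 groups. It was at 62.0, 55.0 and 35.8 CPM in WT_EV, 3.78 and 7.56 CPM in DXp, and 12.0 and 9.22 CPM in DXp_DXm. The groups did not overlap, and DXp was the lowest. Without offsets Hnf4a was 8.94-fold lower in DXp and 4.80-fold lower in DXp_DXm, a log2 change of -3.16 ± 0.37 and -2.26 ± 0.36 (edgeR, adjusted p = 7.86e-05 and 6.17e-04). With offsets the libraries read 4.59 to 5.12 in WT_EV, 3.03 and 3.80 in DXp, and 4.21 and 3.95 in DXp_DXm on the log2 CPM scale, still without overlap. The change was then -1.45 ± 0.30 in DXp, which was called, and -0.84 ± 0.30 in DXp_DXm, which was not (edgeR, adjusted p = 0.00452 and 0.0512). Without WT_EV replicate 3 the DXp_DXm change was called as well (-0.95, adjusted p = 0.0364). With each library left out in turn, the DXp call with offsets held, at -1.95 to -1.19. The difference between DXp and WT_EV was thus smaller after the trend (-1.72 at Hnf4a) was removed.

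Foxa2, a forkhead factor that opens chromatin in endoderm, was at 138, 103 and 138 CPM in WT_EV. It was at 32.8 and 58.5 CPM in DXp and at 51.3 and 22.0 CPM in DXp_DXm. All 4 deletion libraries lay below WT_EV, and the replicates of each deletion differed from each other. Without offsets the change was -1.46 ± 0.38 in DXp and -1.78 ± 0.38 in DXp_DXm (edgeR, adjusted p = 0.00712 and 0.00297). Without DXp replicate 1, the library that lacks Col4a1 counts, the DXp change was -0.99 and not called (adjusted p = 0.0909). With offsets Foxa2 reversed and was called higher, by 1.81 ± 0.38 in DXp and 1.19 ± 0.38 in DXp_DXm (edgeR, adjusted p = 0.00349 and 0.0284). The trend at Foxa2, at 57.0% GC, was -3.31 and -3.00, the largest of the 8 factors in each comparison. With offsets the DXp_DXm call was lost without WT_EV replicate 1, WT_EV replicate 2 or DXp_DXm replicate 1 (1.19, 1.08 and 0.41, adjusted p = 0.0755, 0.0782 and 0.420).

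RefSeq promoters (GRCm38.p6, 250 bases before to 50 after a start site) were matched for 2 of the 8 factors, Foxa2 with 3 start sites and Hnf4a with 2. They are shown because both genes have a call against WT_EV without offsets and because visceral endoderm factors are known to act on each other's promoters. Both strands were searched for 4 GATA words (AGATAA or AGATAG or TGATAA or TGATAG), 4 forkhead words (TGTTTAC or TGTTTGC or TATTTAC or TATTTGC), a SOX word (ACAAT) and an HNF4 word (CAAAGTCCA). Capitals mark the matches. Each promoter is printed on the strand of its gene.
Hnf4a start site 1, chr2:163506607-163506906, plus strand: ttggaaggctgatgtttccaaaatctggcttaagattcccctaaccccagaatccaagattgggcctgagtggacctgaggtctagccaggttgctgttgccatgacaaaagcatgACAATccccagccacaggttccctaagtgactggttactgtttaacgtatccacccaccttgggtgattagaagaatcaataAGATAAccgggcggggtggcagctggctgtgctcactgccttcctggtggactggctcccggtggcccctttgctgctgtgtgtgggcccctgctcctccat
Hnf4a start site 2, chr2:163546905-163547204, plus strand: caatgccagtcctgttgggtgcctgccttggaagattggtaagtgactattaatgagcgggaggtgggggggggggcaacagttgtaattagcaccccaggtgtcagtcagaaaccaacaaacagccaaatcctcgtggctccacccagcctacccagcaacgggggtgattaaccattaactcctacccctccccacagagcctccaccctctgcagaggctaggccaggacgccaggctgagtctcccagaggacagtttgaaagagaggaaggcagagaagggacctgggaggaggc
Foxa2 start site 3, chr2:148045415-148045714, minus strand: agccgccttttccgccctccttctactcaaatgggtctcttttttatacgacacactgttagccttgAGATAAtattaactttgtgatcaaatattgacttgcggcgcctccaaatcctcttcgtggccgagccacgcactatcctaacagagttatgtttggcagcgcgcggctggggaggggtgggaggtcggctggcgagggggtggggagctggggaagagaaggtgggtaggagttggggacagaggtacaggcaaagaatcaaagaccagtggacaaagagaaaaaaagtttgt
The promoter at Hnf4a start site 1 holds a GATA word at position -52 and a SOX word at position -134, counted from the start site, and they do not overlap. Foxa2 start site 3 holds a GATA word at -183, and Hnf4a start site 2 and the other 2 Foxa2 promoters hold no match. Of all 32851 promoters of this length in the table, 29.8% hold a GATA word, 31% the SOX word, 13.5% a forkhead word and 0.475% the HNF4 word. The GATA and SOX words are thus frequent in promoters at large. Counts per gene do not separate the start sites of Hnf4a or Foxa2.

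Foxq1, a forkhead gene, was at 184, 108 and 171 CPM in WT_EV, 8.79 and 21.6 CPM in DXp, and 44.1 and 57.1 CPM in DXp_DXm. The 3 groups did not overlap, with DXp lowest. Without offsets it was 10.1-fold lower in DXp, the largest fold of the 8 factors, and 3.04-fold lower in DXp_DXm. The log2 changes were -3.34 ± 0.38 and -1.61 ± 0.38 (edgeR, adjusted p = 7.91e-05 and 0.00507). The DXp_DXm call was lost without DXp_DXm replicate 1 (-1.35, adjusted p = 0.0568). With offsets neither was called, and the signs differed, at -0.73 ± 0.37 in DXp and 0.84 ± 0.37 in DXp_DXm (edgeR, adjusted p = 0.137 and 0.0924). With offsets Foxq1 was called lower in DXp without DXp replicate 2 (-1.46, adjusted p = 0.0309) and higher in DXp_DXm without WT_EV replicate 3 (1.10, adjusted p = 0.0480). A protein-coding gene on the other strand, A530084C06Rik, covers 66.1% of the Foxq1 exons. It held 4 to 65 counts per library against 172 to 3268 for Foxq1. The strand setting of the counting is not stated, so the Foxq1 count is uncertain.

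Sall4 encodes a zinc-finger factor that pluripotent cells and XEN cells both use. It was at 549.6, 531 and 387 CPM in WT_EV, 293 and 189.7 CPM in DXp, and 327 and 227 CPM in DXp_DXm. All deletion libraries lay below WT_EV. Without offsets the change was -1.02 ± 0.28 in DXp and -0.82 ± 0.28 in DXp_DXm (edgeR, adjusted p = 0.00968 and 0.0285). The DXp call was lost without DXp replicate 2 (adjusted p = 0.0909). The DXp_DXm call was lost without WT_EV replicate 1, WT_EV replicate 2 or DXp_DXm replicate 2 (adjusted p = 0.0745, 0.0689 and 0.205). With offsets Sall4 had the other sign and was not called, at 0.70 ± 0.27 in DXp and 0.58 ± 0.27 in DXp_DXm (edgeR, adjusted p = 0.0564 and 0.110). Without DXp replicate 2 it was called higher in DXp with offsets (1.02, adjusted p = 0.0178).

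**Figure D2:**
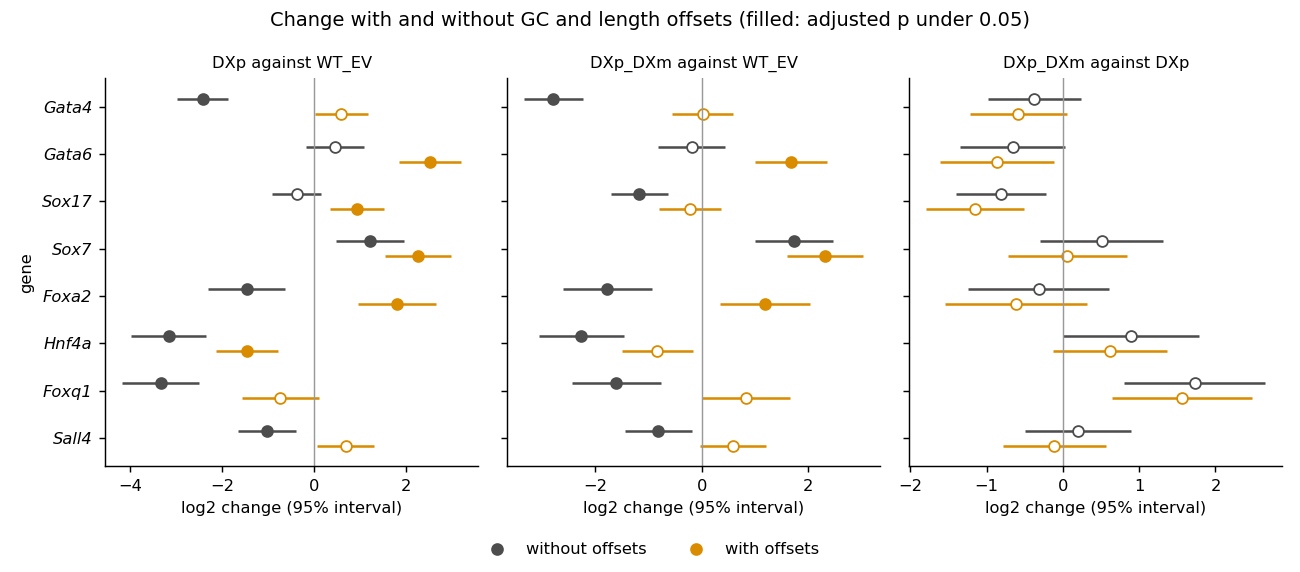
Log2 change with its 95% interval for the 8 factors in 3 comparisons, without offsets (grey) and with GC and length offsets (orange), where filled points have an edgeR adjusted p under 0.05. Sox7 lies right of 0 and is called in both comparisons with WT_EV in both versions, Gata4 moves from -2.42 to 0.60 in DXp, and no factor is filled in DXp_DXm against DXp.

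The 8 transcripts had 51.0 to 57.4% GC, which put them above 62.4 to 90.1% of the genes tested. Over all genes, the median log2 change between DXp and WT_EV fell from 2.31 in the class of 36 to 38% GC to -3.45 in the class of 56 to 58% GC. In DXp_DXm it went from 1.79 to -3.06 between the same classes. In DXp, Sox7, Gata6, Foxa2 and Sox17 lay above the upper quartile of the genes in their GC class. Hnf4a (-3.16) lay below the median of its class (-1.95) but above its lower quartile (-3.23). The percentile of a factor's change with offsets among all tested genes was 92.2 for Gata6, 90.4 for Sox7 and 86.6 for Foxa2 in DXp, and 22.2 for Hnf4a. In DXp_DXm it was 92.9 for Sox7, 87.8 for Gata6, 81.2 for Foxa2 and 28.6 for Hnf4a.

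**Figure D3:**
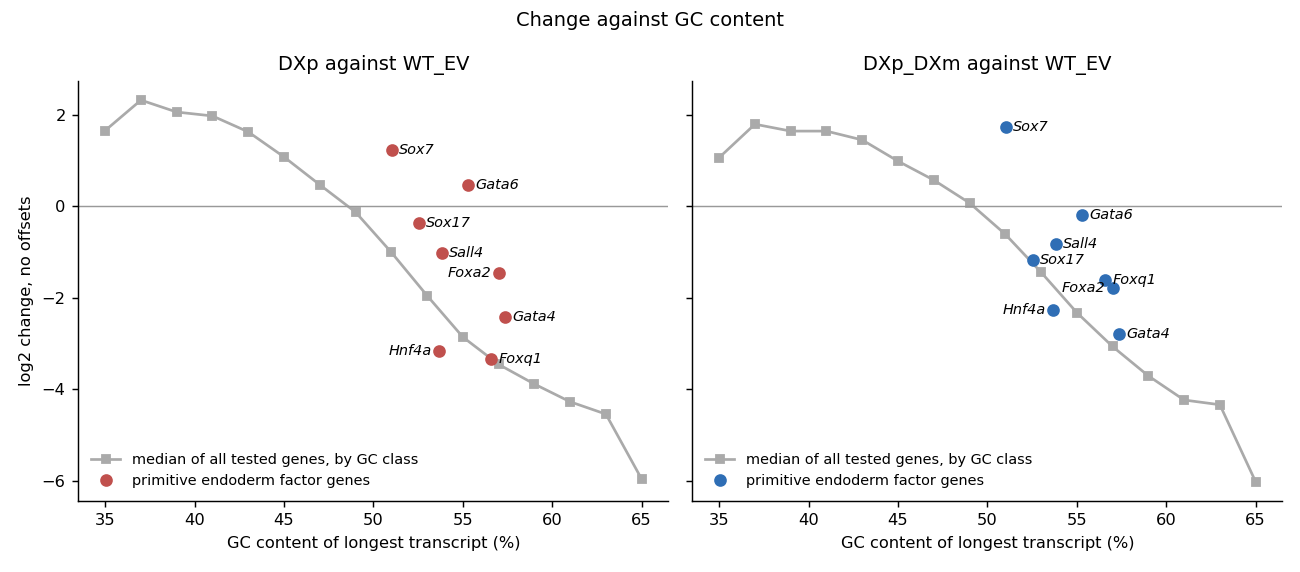
Log2 change without offsets against the GC content (%) of the longest transcript, for DXp and for DXp_DXm against WT_EV, with the 8 factors as labelled points and the median of all tested genes per GC class as a grey line. The line falls with GC content, Sox7 (51.0% GC, 1.22 in DXp) lies above it and Hnf4a (53.7% GC, -3.16 in DXp) below it.

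The order of the factors by level per length changed between the groups. Levels per length are FPKM, the CPM divided by the exon length in kilobases. In WT_EV the order was Gata4 (181 ± 17.8 FPKM, SD, n = 3), Sox17 (119 ± 17.8), Sall4 (88.4 ± 16.1), Gata6 (64.8 ± 10.4), Foxa2 (53.2 ± 8.56), Foxq1 (31.8 ± 8.38), Sox7 (26.6 ± 2.86) and Hnf4a (10.5 ± 2.81). The libraries of neighbours overlapped from Sox17 through Foxa2 and between Foxq1 and Sox7. In DXp the leading pair was Sox17 (91.8 ± 22.0 FPKM, SD, n = 2) and Gata6 (89.4 ± 10.2), which overlapped, and Sox7 came next (62.1 ± 14.5). Gata4 was at 33.8 ± 9.37 FPKM there. In DXp_DXm Sox7 (88.4 ± 47.9 FPKM, SD, n = 2), Gata6 (56.6 ± 22.7), Sox17 (52.6 ± 1.41) and Sall4 overlapped as neighbours, and Gata4 was at 26.1 ± 4.60 FPKM. Sox7 thus went from the next to lowest place in WT_EV to the third in DXp and the first in DXp_DXm, and Gata4 from the highest to below Sall4, with which it overlapped in DXp. These orders are levels without offsets, and the differences in GC content between genes remain in them.

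**Figure D4:**
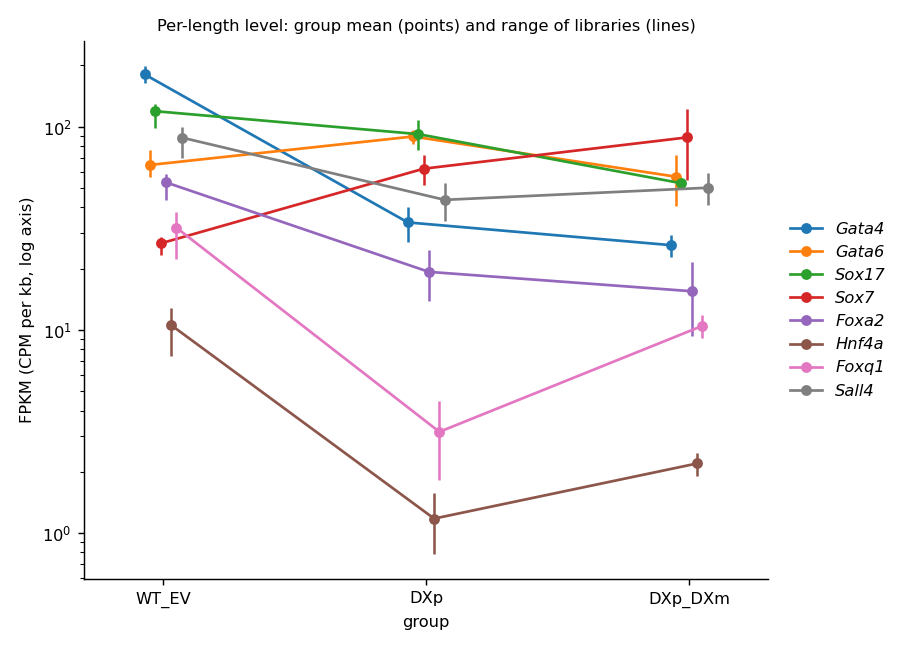
FPKM (log axis) of the 8 factors by group, with group means as points and the range of the libraries as vertical lines (WT_EV n = 3, DXp n = 2, DXp_DXm n = 2). The line of Gata4 starts highest (181 FPKM) and crosses those of Sox17, Gata6, Sall4 and Sox7, and Hnf4a stays lowest in all 3 groups.

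Between the 2 deletions no factor was called, with or without offsets. Here 0.444% of all genes tested were called (68 of 15331), and 0.215% with offsets. Without offsets 2 of the 8 factors had an unadjusted p under 0.05 in edgeR, Foxq1 and Sox17, and DESeq2 called 1 factor and 7.61% of all genes. Foxq1 was higher in both DXp_DXm libraries (44.1 and 57.1 CPM) than in both DXp libraries (8.79 and 21.6 CPM), a difference of 1.73 with a 95% interval from 0.80 to 2.66 (edgeR, adjusted p = 0.0740). DESeq2 gave 1.65 and called it (adjusted p = 0.00707), and edgeR without the filter on low counts also called it (adjusted p = 2.17e-05). Sox17 was lower in DXp_DXm in both libraries, by a difference of -0.80 (interval -1.39 to -0.21, edgeR adjusted p = 0.138) and of -1.15 with offsets (adjusted p = 0.0977). Hnf4a differed by 0.90 (interval 0.00 to 1.79), Gata6 by -0.66 (-1.35 to 0.03), Sox7 by 0.51 (-0.29 to 1.32) and Gata4 by -0.37 (-0.98 to 0.24). Foxa2 differed by -0.32 (-1.24 to 0.60) and Sall4 by 0.20 (-0.49 to 0.89). Without offsets the intervals leave room for differences of 2-fold or more in at least 1 direction for 6 of the 8 factors. Gata4 and Sall4 were the exceptions. With offsets the Gata4 interval was -1.21 to 0.05, which leaves such room too.

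For the 4 factors in both tables, the WT_clone libraries give a further wild-type group. Levels are CPM of the shared genes, so they are higher than the CPM above. Library sizes over these genes were 5825838 to 7641676 counts in WT_clone and 2298180 to 3185905 in WT_EV. WT_clone had few small RNAs (0.0143 to 0.0184% of the counts), as the deletion libraries had (0.0235 to 0.0291%) and unlike WT_EV (0.339 to 0.399%). Sox17 was at 3528, 2681 and 3559 CPM in WT_EV, 1366 and 367 CPM in WT_clone, 2242 and 1611 CPM in DXp, and 1077 and 1086 CPM in DXp_DXm. WT_clone replicate 1 held more Sox17 than replicate 2 and neither reached the WT_EV libraries. Foxa2 was at 789, 585 and 793 CPM in WT_EV, 570.3 and 115 CPM in WT_clone, 144 and 259 CPM in DXp, and 216 and 97.1 CPM in DXp_DXm. Hnf4a was at 355, 313 and 206 CPM in WT_EV, 179 and 56.0 CPM in WT_clone, 16.5 and 33.5 CPM in DXp, and 50.4 and 40.7 CPM in DXp_DXm. For Hnf4a both WT_clone libraries lay between the WT_EV and the deletion libraries. Sall4 was at 3146, 3028 and 2226 CPM in WT_EV, 1610 and 1281 CPM in WT_clone, 1282 and 839 CPM in DXp, and 1376 and 999.6 CPM in DXp_DXm.

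**Figure D5:**
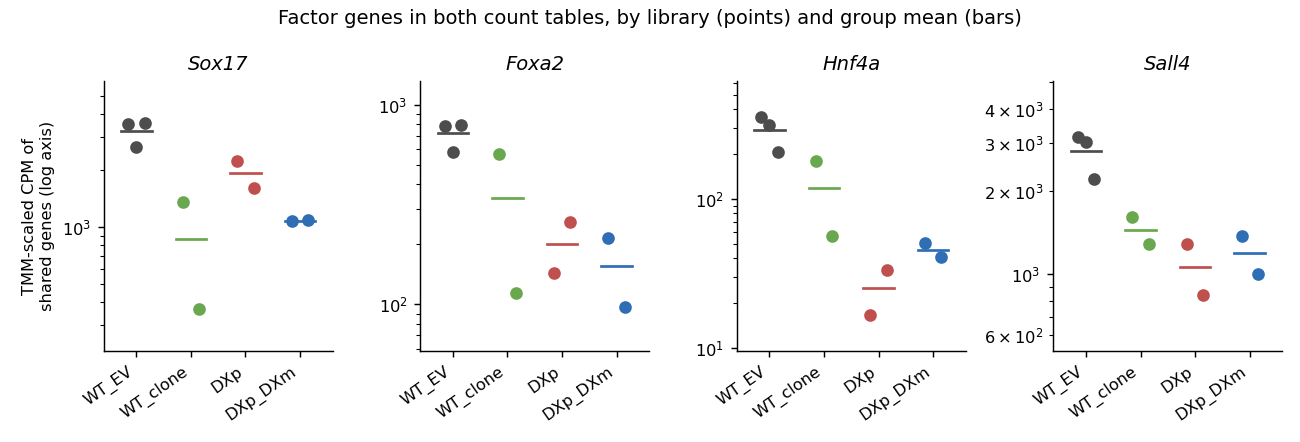
TMM-scaled CPM of the shared genes (log axis) for Sox17, Foxa2, Hnf4a and Sall4 in WT_EV (n = 3), WT_clone, DXp and DXp_DXm (n = 2 each), with points for libraries and bars for group means. The 2 WT_clone libraries are far apart for Sox17 (1366 and 367 CPM), Foxa2 and Hnf4a, and all of them lie below the WT_EV libraries.

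The 2 wild-type groups differed in these factors. WT_clone had lower Sox17 than WT_EV, by -1.91 ± 0.44, and lower Sall4, by -0.95 ± 0.29 (edgeR, adjusted p = 0.0140 and 0.0343), and both kept the call with offsets (-1.85 and -0.90, adjusted p = 0.0253 and 0.0489). In this comparison 30.6% of the 3302 genes tested were called, and 26.1% with offsets. Hnf4a differed by -1.31 and Foxa2 by -1.08, neither called (edgeR, adjusted p = 0.0660 and 0.196), but without WT_clone replicate 1 both were called, at -2.36 and -2.63 (adjusted p = 0.00741 and 0.00652). Hnf4a was also called by DESeq2 (-1.42, adjusted p = 0.0202), and by edgeR without the filter, with upper-quartile scaling and with TMM from protein-coding genes (adjusted p = 0.00642, 0.0478 and 0.0421). Sox17 kept its call without offsets when each library was left out, at -3.13 without WT_clone replicate 1 and -1.23 without WT_clone replicate 2. With offsets the Sox17 call was lost without WT_EV replicate 1, 2 or 3 (adjusted p = 0.0596, 0.0507 and 0.0537), and the Sall4 call without any 1 of the 5 libraries compared (adjusted p = 0.0547 to 0.185). The Sall4 call was lost without WT_EV replicate 1, WT_EV replicate 2 or WT_clone replicate 2 (adjusted p = 0.103, 0.0981 and 0.139).

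Against WT_clone, DXp had 1 of the 4 factors called without offsets, lower Hnf4a (-2.23 ± 0.53, edgeR adjusted p = 0.00863), where 40.2% of all genes were called. That call was lost without WT_clone replicate 1 (-1.15, adjusted p = 0.0686) or DXp replicate 1 (-1.80, adjusted p = 0.0907), and with offsets the change was -0.35 (adjusted p = 0.669). With offsets Sox17 (2.79 ± 0.51) and Sall4 (1.53 ± 0.32) were called higher in DXp (edgeR, adjusted p = 0.0107 and 0.0133), where 14.8% of all genes were called. Without offsets Sox17 stood at 1.15 ± 0.48 (edgeR, adjusted p = 0.0835). DXp_DXm had none of the 4 called without offsets (25% of all genes called), 1 at an unadjusted p under 0.05, and none by DESeq2. With offsets it had Sall4 called higher, by 1.33 ± 0.32 (edgeR, adjusted p = 0.0390, 5.88% of all genes called). These calls followed the choice of WT_clone library. Without WT_clone replicate 1 Sox17 was called higher in both deletions even without offsets (2.39 in DXp and 1.60 in DXp_DXm, adjusted p = 3.57e-04 and 0.00577). Without WT_clone replicate 2 Foxa2 was called lower in both (-1.51 and -1.88, adjusted p = 0.0246 and 0.0120), and Hnf4a also in DXp_DXm (-1.99, adjusted p = 0.00649). With offsets, the calls also moved with the library left out. The Sox17 and Sall4 calls of DXp were lost without DXp replicate 1 (adjusted p = 0.0725 and 0.133), and the Sall4 call of DXp_DXm without DXp_DXm replicate 1, DXp_DXm replicate 2 or WT_clone replicate 2 (adjusted p = 0.202, 0.106 and 0.102). The lower Hnf4a of DXp relative to WT_EV was thus not called with offsets when WT_clone was the wild type, with an interval of -1.43 to 0.73. Sox7, Gata4, Gata6 and Foxq1 were not analysed here in WT_clone.

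Of 26 other endoderm transcription factor genes, 16 were tested. In DXp against WT_EV 3 were called higher and 5 lower, where 32.2% and 40.1% of all genes were, and 7 and 2 with offsets, where 24.2% and 26% were. In DXp_DXm 3 were higher and 7 lower (30.8% and 36% of all genes), and 5 and 2 with offsets (21% and 21.8%). The median log2 change of the 16 was 0.00 in DXp and -0.32 in DXp_DXm, and 0.68 and -0.10 with offsets. Zfpm1, a cofactor of GATA factors, averaged 72.6 ± 24.4 CPM (SD, n = 3) in WT_EV, 1.20 ± 0.04 CPM in DXp and 0.58 ± 0.18 CPM in DXp_DXm (SD, n = 2 each). It was called lower in both with offsets too (-1.93 and -2.73, edgeR adjusted p = 0.00193 and 7.92e-04). Tcf7l2, a factor at the end of the Wnt pathway, averaged 76.4 ± 38.7 CPM in WT_EV, 361 ± 44.0 CPM in DXp and 358 ± 13.2 CPM in DXp_DXm, and was higher in both versions (with offsets 1.36 and 1.34, edgeR adjusted p = 0.00878 and 0.0116). Nr2f1, an orphan nuclear receptor, was higher in both deletions but stayed low, at 2.60 ± 0.36 CPM in DXp. None of the 16 was called between the deletions in edgeR, where 0.444% of all genes were called. DESeq2 called 3 of the 16 lower, where it called 7.61% of all genes.

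Of 36 endoderm genes downstream of such factors or used as markers, 28 were tested. In DXp against WT_EV 6 were called higher and 11 lower, where 32.2% and 40.1% of all genes were. With offsets 7 were higher and 5 lower, where 24.2% and 26% of all genes were. In DXp_DXm 4 were higher and 10 lower (30.8% and 36% of all genes), and 7 and 7 with offsets (21% and 21.8%). The median log2 change of the 28 was -1.75 in DXp and -0.50 in DXp_DXm, and -0.42 and -0.13 with offsets. Nid1, a basement membrane gene, was higher in both versions, at 511 ± 72.1 CPM in WT_EV, 4505 ± 857 CPM in DXp and 2232 ± 255 CPM in DXp_DXm. Soat2, which esterifies cholesterol, averaged 34.2 ± 4.07 CPM in WT_EV and 3.27 ± 2.25 CPM in DXp, but was not called there with offsets (-0.60, edgeR adjusted p = 0.217). Rbp4, the plasma carrier of retinol, was the 1 gene of this list called between the deletions by edgeR, where 0.444% of all genes were. It averaged 128 ± 69.0 CPM in DXp and 14.3 ± 3.59 CPM in DXp_DXm, a change of -3.17 ± 0.43 (edgeR, adjusted p = 0.0314), with 15.3 ± 4.99 CPM in WT_EV. DESeq2 called 1 gene of the list higher and 3 lower, where it called 7.61% of all genes. In edgeR 0 genes of the list were called without DXp replicate 1, DXp replicate 2 or DXp_DXm replicate 1.

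For each factor the protein-coding genes with the most similar pattern over the 7 libraries were sought among 7970 genes of at least 10 CPM, by Pearson's r of log2 CPM after offsets. The libraries form groups that differ in RNA makeup, so r follows the differences between groups and is given as a description only. The nearest genes were P3h4 (r = 0.993) and Arrdc4 (0.982) for Gata4, Lamp2 and Dcun1d1 (0.995 each) for Gata6, Zfp976 (0.986) and Plpp5 (0.979) for Sox17, and Atrip (0.997) and Rraga (0.996) for Sox7. They were St3gal2 (0.991) and Arl1 (0.989) for Foxa2, Dcun1d3 (0.995) and Hspa8 (0.994) for Hnf4a, Cyb5r3 (0.982) and Arhgdia (0.965) for Foxq1, and Ddx20 (0.978) and Plekha3 (0.948) for Sall4. No pair of factors shared a nearest gene.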

How the data were processed

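The deposited values are whole-number read counts for each gene, not normalized, which the authors made with STAR 2.7.9a and featureCounts 2.0.1 on GRCm38 (mm10) after FastQC, per the submitters' processing notes. Strand setting and annotation release are not stated. The WT_clone table was held in part (11512 complete rows, 1 incomplete row left out), so it was compared over shared genes only. It held the factors on chromosomes 1 and 2 and not those on chromosomes 13, 14 and 18, so the shared genes may not stand for the genome. Scaling, percentages and shares of all genes in those comparisons rest on the shared genes alone. The number of per-sample columns left without a sample was 0. Symbols and GC content came from GENCODE M21 (55141 of 55401 genes matched), and gene length was the one deposited with the counts.

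Low counts were removed by filterByExpr, libraries were scaled by TMM, and groups were compared by the robust quasi-likelihood test of edgeR 4.0.16 (limma 3.58.1, R 4.3.3), with p-values adjusted by Benjamini-Hochberg across every tested gene. A gene was called at an adjusted p under 0.05. The biological coefficient of variation was 33.7% over 7 libraries and 39.3% over 9. Offsets were fitted per library as splines of GC content and length (5 degrees of freedom each) on log2 CPM with a prior count of 0.5, then rescaled by TMM. The fit without offsets was tested on simulated data with 200 changed genes and no GC or length trend. The offsets were not tested that way. Library depth was 14352719 to 29335803 counts, and each group has 2 or 3 libraries.

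Replicates of a group differed by more than sampling noise, and none was a duplicate. The 8 factors, the 2 lists of other genes and the marker lists were chosen with earlier results of these data known. The factors are named in every comparison, and from each list the up to 4 genes with the lowest p per comparison could be named. Alternatives were DESeq2 1.42.0, no filter, offsets, upper-quartile scaling, TMM from protein-coding genes without histones, a replicate block, the compared groups alone, and leaving out each library.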

Additional observations from a re-analysis of the deposited data

How the results depend on the processing

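The results against WT_EV turn on whether GC content and length are corrected. With offsets the DXp change against WT_EV took the other sign for Gata4 (0.60), Sox17 (0.94), Foxa2 (1.81) and Sall4 (0.70), and the DXp_DXm change for Gata4 (0.015), Gata6 (1.67), Foxa2 (1.19), Foxq1 (0.84) and Sall4 (0.58). With offsets 3 factors and 6554 genes were called in DXp_DXm against WT_EV, 33 genes in DXp_DXm against DXp (Sall4 at -0.11), 488 genes and 2 factors in DXp against WT_clone (Foxa2 1.59, Sall4 1.53), and 194 genes and 1 factor in DXp_DXm against WT_clone (Foxa2 0.99, Hnf4a 0.19, Sall4 1.33). DESeq2, no filter, upper-quartile scaling, TMM from protein-coding genes and the compared groups alone reversed no factor. The median of all genes moved from -0.35 to -0.20 by DESeq2 scaling in DXp against WT_EV, and from 0.03 to -0.11 by upper-quartile scaling in WT_clone against WT_EV.

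Replicate numbers were not taken as pairs. Deviations of same-numbered libraries correlated at -0.26 to 0.09, with -0.26 between DXp and DXp_DXm. With the DXp numbers taken from the sample names instead, that value is 0.26, so these correlations do not settle whether libraries were paired. The replicate block called 2 factors in DXp against WT_clone (Sox17 at 1.30, adjusted p = 0.0361, edgeR) and changed no other call of a factor. The replicate block with offsets gave, in DXp against WT_EV, 7014 genes and 6 factors, with Gata4 now called at 0.83 (adjusted p = 0.0308), Sox17 at 1.05, Foxa2 at 2.07 and Sall4 at 0.56. In DXp_DXm against WT_EV it gave 5703 genes and 3 factors, with Gata4 at 0.25, Gata6 at 1.92, Foxa2 at 1.37, Foxq1 at 1.02 and Sall4 at 0.48, and in DXp_DXm against DXp Sall4 at -0.082. It gave 585 genes in WT_clone against WT_EV, 417 genes and 2 factors in DXp against WT_clone (Foxa2 1.96, Sall4 1.49), and 168 genes and 1 factor in DXp_DXm against WT_clone (Foxa2 1.11, Hnf4a 0.26, Sall4 1.32). With the DXp numbers crossed, since the titles give them both ways, the block called 1570 genes and 1 factor between the deletions. That factor was Foxq1 (1.88, edgeR adjusted p = 0.0160), and this alternative was chosen after seeing the data.

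Between the deletions DESeq2 called 1 factor and 1167 genes, no filter 1 factor and 1436 genes, and the 2 groups alone 10 genes. Against WT_clone, DXp had 2 factors called by DESeq2, without the filter and with upper-quartile scaling. DXp_DXm had 2 factors called without the filter, and 436 genes from the 2 groups alone. WT_clone against WT_EV had 4 factors called without the filter. The shares of all genes called are not set beside these factor counts, so the counts are not read as results about the factors. The cause of these shifts was not tested.

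Leaving out each library in turn gave 2 to 144 genes between the deletions, where Sox7 ranged from -0.19 to 0.98, Foxa2 from -1.05 to 0.17 and Sall4 from -0.090 to 0.50, none called. Gata6 in DXp_DXm against WT_EV ranged from -0.59 to 0.18. It gave 551 to 1057 genes and 1 to 4 factors in WT_clone against WT_EV, 692 to 1334 genes and 0 to 2 factors in DXp against WT_clone (Foxa2 -1.51 to 0.82), and 415 to 949 genes and 0 to 2 factors in DXp_DXm against WT_clone (Sox17 -0.35 to 1.60, Foxa2 -1.88 to 0.50). With offsets, chosen for leave-one-out after seeing the data, 2 to 5 factors were called in DXp_DXm against WT_EV (Gata4 -0.24 to 0.29), 4 to 7 in DXp against WT_EV, 0 to 3 in WT_clone against WT_EV (Foxa2 -1.71 to 0.71), and 0 to 3 in DXp (Hnf4a -1.02 to 0.70) and in DXp_DXm (Hnf4a -0.48 to 1.25) against WT_clone. With offsets between the deletions Sox7 ranged from -0.52 to 0.48 and Sall4 from -0.47 to 0.39. Where 1 library was left in a group, it was assumed to vary like the others.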
